A study of Mus musculus with 24 samples.

Results

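The 2 large families of liver conjugation enzymes, the UDP-glucuronosyltransferases (UGTs) and the sulfotransferases (SULTs), were followed in bulk RNA-seq libraries of 24 mouse livers. A gene was taken as a member when its symbol in the deposited count table began with Ugt1a, Ugt2a, Ugt2b or Ugt3a, or with Sult, a digit and a letter, and when it had at least 1 count over the 24 livers. The rule itself used no difference between groups, but the families were chosen with earlier results of these data known. Of 48 symbols of that form, 33 had a count (17 UGT and 16 SULT genes), among 27769 genes with a count in the whole table. Of the 33 members, 27 reached 0.5 CPM (counts scaled to library size) in at least 2 livers and were tested in 1 model with all 19381 genes that did so.

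The livers came from 6 groups of male C57BL/6JAusb mice, 1 liver per mouse: 5 from SB/AKT/NRas + TAA, 4 from SB/AKT/c-Met + TAA, 4 from SB/AKT/NRas + saline, 3 from SB/AKT/c-Met + saline, 4 from SB + TAA, and 4 from SB + saline. All mice, the SB + saline controls included, were 14 to 15 weeks old when a hydrodynamic tail vein injection (HTVI) delivered 0.8 µg of plasmid for the Sleeping Beauty transposase (SB), which inserts the other plasmids' transposons into the genome of liver cells. SB/AKT/NRas mice received in addition 10 µg each of plasmids for myristoylated AKT and mutant NRas, and SB/AKT/c-Met mice 10 µg each of plasmids for AKT and c-Met. From 8 to 10 days later, mice were given 10 to 11 intraperitoneal injections over 5 to 6 weeks, either of saline or of thioacetamide (TAA), a hepatotoxin that injures hepatocytes and leads to fibrosis, at 100 mg/kg once and 200 mg/kg afterwards. Only the liver cells that took up plasmid carry the oncogenes, and RNA came from bulk tissue, so nodules and the liver around them were not separated.

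UGTs sit in the endoplasmic reticulum and attach a sugar, usually glucuronic acid drawn from UDP-glucuronic acid, to bilirubin, steroids, bile acids and drugs. SULTs are cytosolic enzymes that transfer sulfate from the donor PAPS to hormones, bile acids, catecholamines and drugs. The conjugates are more water-soluble and leave the hepatocyte through membrane transporters, and in mouse liver several members of both families are expressed at different levels in males and females.

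Libraries held 2152510 to 3399247 counts (median 2832909). Of their records, 15.6 to 16.69% were assigned to genes in SB + saline. In SB/AKT/NRas + TAA, SB/AKT/c-Met + TAA and SB + TAA it was 19.41 to 22.73%, 19.9 to 22.49% and 20.68 to 23.13%. SB/AKT/NRas + saline (13.75 to 23.94%) and SB/AKT/c-Met + saline (15.91 to 20.63%) overlapped SB + saline. Genes with a count numbered 15478 to 16478 in SB + saline, and only these 2 groups overlapped that range. Its part in the results was not tested. Human NRAS had 28 to 768 counts in the 9 livers given the NRas plasmid and 0 to 2 in the 15 others, and human MET had 2 to 31 counts in the 7 livers given the c-Met plasmid and 0 in the 17 others, so no liver went against its plasmid label. All 8 hepatocyte markers passed the filter, and their summed level was 50800 to 74500 CPM in SB/AKT/NRas + TAA, 56000 to 82000 in SB/AKT/c-Met + TAA, 51400 to 85400 in SB/AKT/NRas + saline, 63800 to 75700 in SB/AKT/c-Met + saline, 79000 to 109000 in SB + TAA livers and 95200 to 114000 CPM in SB + saline livers. Replicate 4 of SB + TAA stood apart by 4540 CPM summed over 6 skeletal muscle markers, against at most 22.7 CPM in any other liver. The members' calls in SB + TAA relative to SB + saline are given without it as well. Results for other genes, the gene lists and the shares over all genes are given only with it included. SB + saline libraries also had the lowest TMM scaling factors (0.7719 to 0.8175; SB + TAA libraries had 0.9432 to 1.145), so scaling by library size alone moved the median log2 fold change of all genes against SB + saline up by 0.26 to 0.432.

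In the genome (GRCm38), the Ugt2 genes lie on chromosome 5 between 86889767 and 87424203, Ugt2b35 on the plus strand and the others on the minus strand. Beyond them follow 3 Sult1 genes, all on the minus strand. These are Sult1b1 (chr5:87513339-87538195, minus strand), Sult1d1 (chr5:87554645-87569027, minus strand) and Sult1e1 (chr5:87575969-87591594, minus strand). The Ugt1a genes lie on chromosome 1 between 88070800 and 88220002 and splice alternative first exons onto common last exons, which places 50.3 to 60.6% of each gene's exonic bases inside other genes. Reads falling in exons of several genes were not counted by the authors, and Ugt1a members had only 1 to 224 counts in all, so their values are uncertain. Sult2a2 shares no exonic base with another gene, but 57.6% of the 50-base words in the last 500 bases of its transcript occur in other Sult2a genes, and with 5 counts over all livers its values are uncertain as well. None of the 9 members named below shared any exonic base with another gene, and none of the 50-base words in the last 500 bases of their transcripts occurred in another gene.

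**Figure D1:**
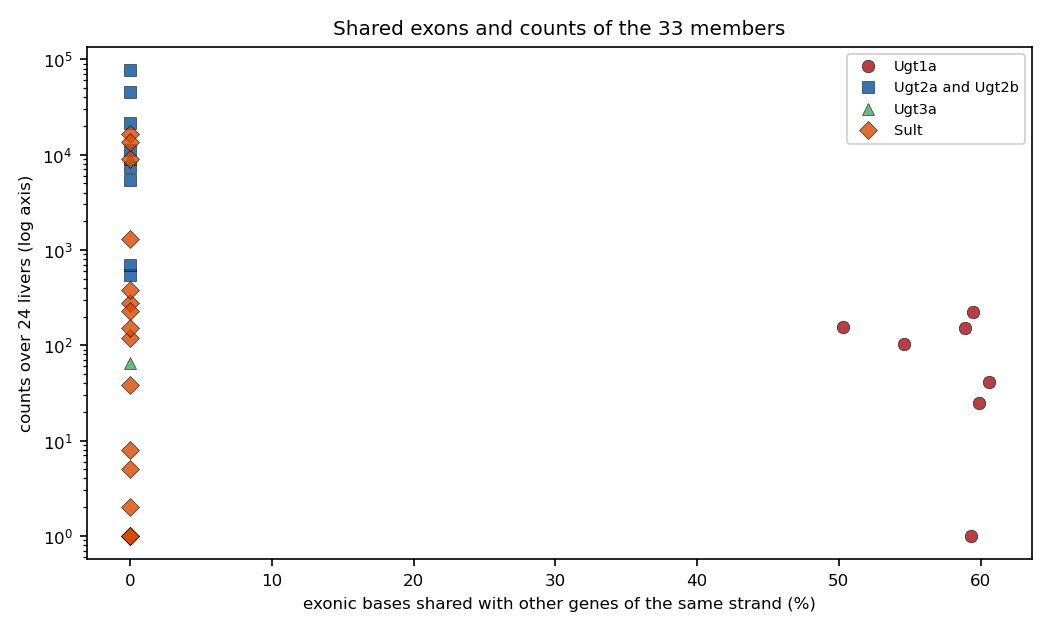
Share of each member's exonic bases that lie in exons of other genes (x axis, percent) against its total counts over 24 livers (y axis, log scale), 1 point per member, 33 members. The Ugt1a members sit between 50.3 and 60.6% with at most 224 counts, whereas the members with the highest counts sit at or near 0%.

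The promoter windows of Ugt2a3 and of the 3 neighbouring Sult1 genes are shown because these neighbours did not move alike: in SB/AKT/NRas + saline livers Ugt2a3, Sult1b1 and Sult1d1 fell and Sult1e1 rose, and with TAA in SB livers Ugt2a3 fell, Sult1e1 rose and the others were not called. Each is the 250 bases before a start site in RefSeq (GRCm38.p6), 5′ to 3′ on the gene's strand. Capitals mark the letters GTTAAT, part of the site bound by the hepatocyte factor HNF1, searched on both strands:
Ugt2a3 (chr5:87337196-87337445, minus strand): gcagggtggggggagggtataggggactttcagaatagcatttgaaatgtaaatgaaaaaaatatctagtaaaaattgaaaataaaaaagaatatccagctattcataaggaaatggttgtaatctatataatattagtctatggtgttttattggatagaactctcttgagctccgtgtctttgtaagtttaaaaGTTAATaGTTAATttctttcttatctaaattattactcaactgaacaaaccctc
Sult1b1 (chr5:87538196-87538445, minus strand): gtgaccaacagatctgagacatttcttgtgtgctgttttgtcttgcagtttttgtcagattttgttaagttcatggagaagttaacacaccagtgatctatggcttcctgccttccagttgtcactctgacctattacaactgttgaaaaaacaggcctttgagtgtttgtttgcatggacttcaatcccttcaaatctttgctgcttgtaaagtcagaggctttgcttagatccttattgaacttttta
Sult1d1 (chr5:87569007-87569256, minus strand): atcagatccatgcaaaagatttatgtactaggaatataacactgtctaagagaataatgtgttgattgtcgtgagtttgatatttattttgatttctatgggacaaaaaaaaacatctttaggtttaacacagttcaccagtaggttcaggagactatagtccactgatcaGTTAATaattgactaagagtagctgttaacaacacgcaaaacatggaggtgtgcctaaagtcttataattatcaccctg
Sult1e1 (chr5:87591612-87591861, minus strand): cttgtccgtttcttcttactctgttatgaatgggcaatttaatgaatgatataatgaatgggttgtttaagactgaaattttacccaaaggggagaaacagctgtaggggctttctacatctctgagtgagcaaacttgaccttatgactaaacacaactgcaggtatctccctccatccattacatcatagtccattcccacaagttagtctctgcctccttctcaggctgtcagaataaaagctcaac
GTTAAT occurred in 2 adjacent copies in the Ugt2a3 window and once in the Sult1d1 window, and was not in the windows of Sult1b1 (which has a second RefSeq window, not shown) and Sult1e1. Over the 27 members with a RefSeq window, which are not the same 27 as those tested, 9 had it. Of the 7 named members with a window, 2 had it. Over all genes it was in 6.43% of 32851 single windows, whereas a member may have more than 1 window. The letters CAAAGTCCA (HNF4; 0.384% of all windows), TTCNNNGAA (STAT factors; 7.02%) and TGACNNNGC (antioxidant element; 10.2%) were in 0, 2 and 0 of the 27 members' windows, and in none of the windows of the 7 named members that had one. GCGTG (core of the dioxin element; 28.2% of all windows), CCAAT (33.8%) and TATAAA (12.4%), also searched on both strands, were in 4, 6 and 3 members' windows. These are matches of letters only.

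Among the 6 groups, 9 of the 27 members tested differed at an adjusted p under 0.05 (33.3%, against 9.01% of all genes tested; edgeR quasi-likelihood F test, Benjamini-Hochberg adjustment over all genes). They were 4 UGT genes, Ugt2b1, Ugt2a3, Ugt2b38 and Ugt3a2, and 5 SULT genes, Sult2a8, Sult1b1, Sult1d1, Sult1e1 and Sult4a1. Their adjusted p-values by that test lay between 0.00527 (Sult1d1) and 0.0345 (Sult2a8). Relative to SB + saline livers, the UGT genes and Sult2a8 were lower wherever they were called, Sult1e1 and Sult4a1 were higher wherever they were called, Sult1b1 had its lowest mean in SB/AKT/NRas + saline livers and Sult1d1 its lowest means in both oncogene + saline groups. Robust estimation of the spread left 3 of the 9 called (Sult1d1, Sult1b1 and Sult4a1), and leaving out SB + saline replicate 1 or replicate 2 left 5. The share of all genes called with other tools or settings, or with a liver left out, is not given, here or below. Changes in the members' counts in those fits are therefore not read as results about the members. In bulk liver, fewer cells of a type and less RNA per cell cannot be told apart.

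**Figure D2:**
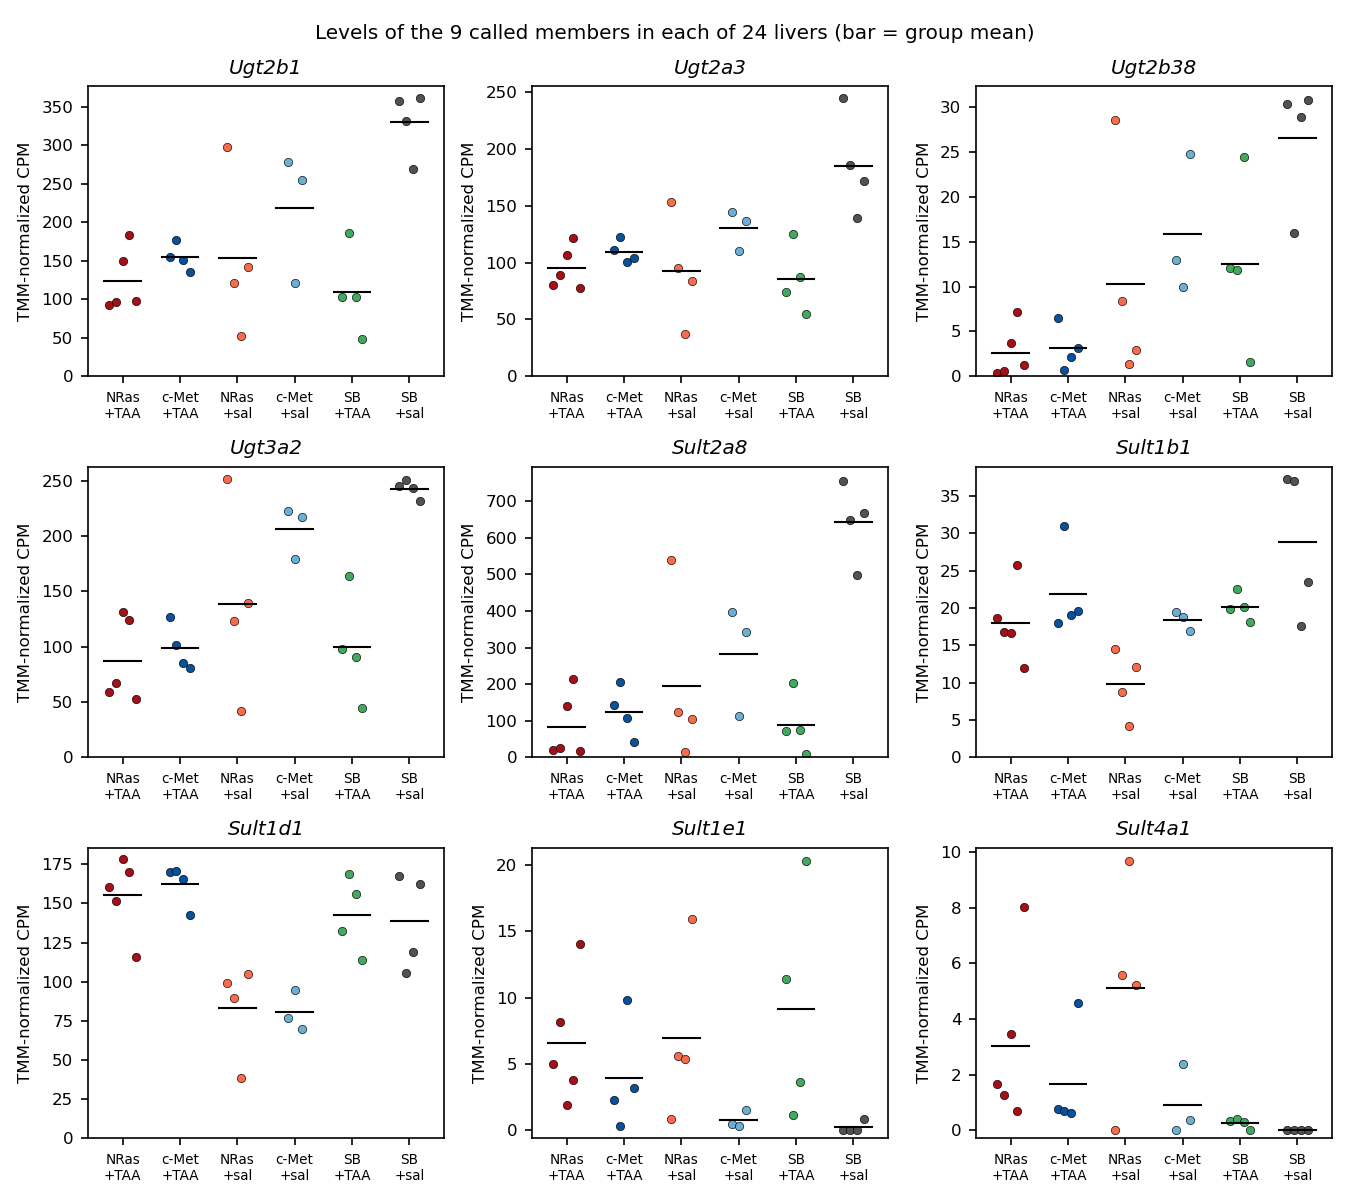
Level of the 9 members that differed among the groups, in CPM (y axis, TMM-scaled, 1 panel per gene with its own scale), in each of 24 livers (points) with the mean of each group (bar). SB + saline livers are the highest group for Ugt2b1 (mean 329.7 CPM), Ugt3a2 (243 CPM) and Sult2a8 (642 CPM) and have 0 counts of Sult4a1.

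Ugt2b1 (ENSMUSG00000035836, chr5:86916638-86926530, minus strand) is a UGT of the Ugt2b subfamily of steroid and drug glucuronidating enzymes. Its level was 92.1, 95.9, 150.2, 183 and 97.2 CPM in SB/AKT/NRas + TAA livers and 154, 177, 151 and 136 CPM in SB/AKT/c-Met + TAA livers. Without TAA, Ugt2b1 was at 297, 121, 52.6 and 142 CPM in SB/AKT/NRas + saline livers and 278, 121 and 255 CPM in SB/AKT/c-Met + saline livers. With SB alone, Ugt2b1 was at 103, 186, 103 and 47.9 CPM in SB + TAA livers, against 357, 331, 269 and 361 CPM in SB + saline livers. The SB + saline livers lay above all livers of the other groups except 1 SB/AKT/NRas + saline liver and 1 SB/AKT/c-Met + saline liver that reached the lower end of their range. The log2 fold change against SB + saline was −1.42 (SE 0.34, adjusted p = 0.007955, edgeR) in SB/AKT/NRas + TAA livers and −1.59 (SE 0.37, adjusted p = 0.009848, edgeR) in SB + TAA livers. It was −1.09 (SE 0.36, adjusted p = 0.09152, edgeR) in SB/AKT/c-Met + TAA livers and −1.11 (SE 0.36, adjusted p = 0.05568, edgeR) in SB/AKT/NRas + saline livers, which did not pass the test.

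Ugt2a3 (ENSMUSG00000035780, chr5:87324972-87337195, minus strand) codes for an enzyme whose human counterpart glucuronidates bile acids. The level in single livers was 80.1, 88.99, 106, 121 and 77.4 CPM in SB/AKT/NRas + TAA livers and 111, 122, 101 and 104 CPM in SB/AKT/c-Met + TAA livers. The saline groups with oncogenes had 153, 95.3, 37.5 and 83.96 CPM (SB/AKT/NRas + saline) and 144, 109.7 and 137 CPM (SB/AKT/c-Met + saline). In mice given SB alone, Ugt2a3 was at 74.3, 126, 87.2 and 54.6 CPM in SB + TAA livers, against 244.8, 185, 139 and 172 CPM in SB + saline livers. All livers given TAA lay below all SB + saline livers, while 1 SB/AKT/NRas + saline liver and 1 SB/AKT/c-Met + saline liver overlapped them. Against SB + saline, the log2 fold change was −0.97 (SE 0.26, adjusted p = 0.01502, edgeR) in SB/AKT/NRas + TAA, −1.01 (SE 0.27, adjusted p = 0.02113, edgeR) in SB/AKT/NRas + saline livers and −1.12 (SE 0.27, adjusted p = 0.01459, edgeR) in SB + TAA livers. Each of these calls was lost without SB + saline replicate 1, the second also without SB/AKT/NRas + saline replicate 3 or 4 and the last without SB + TAA replicate 4, with adjusted p-values up to 0.06881, 0.08816 and 0.07172 (edgeR) in the order of the groups. Library size alone (−0.58, adjusted p = 0.05434) and the replicate number as a block (−0.85, adjusted p = 0.06304) also ended the call in SB/AKT/NRas + TAA, and that in SB/AKT/NRas + saline was lost with only the groups compared (adjusted p = 0.0862, edgeR).

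Ugt3a2 (ENSMUSG00000049152, chr15:9335550-9370955, plus strand) belongs to the Ugt3 family, whose human members use other sugars than glucuronic acid. Its scaled count was 58.7, 67.2, 131, 124 and 52.4 CPM in SB/AKT/NRas + TAA livers and 127, 102, 85.6 and 81.1 CPM in SB/AKT/c-Met + TAA livers. Without TAA, Ugt3a2 was at 252, 123, 41.8 and 139 CPM in SB/AKT/NRas + saline livers and 223, 179 and 217 CPM in SB/AKT/c-Met + saline livers. With SB alone, Ugt3a2 was at 98.1, 164, 90.5 and 44.9 CPM in SB + TAA livers, against 246, 251, 243 and 232 CPM in SB + saline livers. SB + saline livers were close together, and only 1 SB/AKT/NRas + saline liver reached their range, with a value above all of them. Against SB + saline, the log2 fold change was −1.49 (SE 0.34, adjusted p = 0.005453, edgeR) in SB/AKT/NRas + TAA, −1.30 (SE 0.36, adjusted p = 0.04013, edgeR) in SB/AKT/c-Met + TAA livers and −1.29 (SE 0.36, adjusted p = 0.03226, edgeR) in SB + TAA livers. In SB/AKT/c-Met + saline livers, which did not overlap SB + saline, it was −0.24 (SE 0.39, adjusted p = 0.8932, edgeR). The call in SB/AKT/NRas + TAA held without any 1 liver, whereas those in SB/AKT/c-Met + TAA livers or SB + TAA livers were lost without any 1 SB + saline liver, without replicate 2, 3 or 4 of SB/AKT/c-Met + TAA and without replicate 1, 3 or 4 of SB + TAA (adjusted p up to 0.1187 and 0.1352, edgeR). Robust estimation also ended these 2 calls (0.1073 and 0.0881).

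Ugt2b38 (ENSMUSG00000061906, chr5:87409942-87424203, minus strand) had 697 counts in all and had its lowest mean levels in both groups given oncogenes and TAA. Its level was 0.334, 0.631, 3.76, 7.22 and 1.25 CPM in SB/AKT/NRas + TAA livers and 6.53, 0.704, 2.15 and 3.16 CPM in SB/AKT/c-Met + TAA livers. The saline groups with oncogenes had 28.6, 8.35, 1.42 and 2.93 CPM (SB/AKT/NRas + saline) and 12.96, 9.91 and 24.7 CPM (SB/AKT/c-Met + saline). In mice given SB alone, Ugt2b38 was at 12.1, 11.8, 24.5 and 1.62 CPM in SB + TAA livers, against 30.4, 15.9, 28.9 and 30.8 CPM in SB + saline livers. Both oncogene groups given TAA lay below all SB + saline livers, and the other 3 groups overlapped SB + saline. The log2 fold change against SB + saline was −3.36 (SE 0.68, adjusted p = 0.002141, edgeR) in SB/AKT/NRas + TAA livers and −3.10 (SE 0.73, adjusted p = 0.01287, edgeR) in SB/AKT/c-Met + TAA livers, against −1.10 (SE 0.62, adjusted p = 0.3173, edgeR) in SB + TAA livers, where it was not called. The call in SB/AKT/c-Met + TAA was lost without replicate 2 or 3 of that group (adjusted p up to 0.05767, edgeR) and with robust estimation (0.06155). The direct comparisons of oncogene + TAA livers with SB + TAA livers or with their saline groups did not pass the test for this gene (adjusted p = 0.1275 for SB/AKT/NRas + TAA relative to SB + TAA livers and 0.2834 for SB/AKT/c-Met + TAA relative to SB/AKT/c-Met + saline, edgeR).

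Sult2a8 (ENSMUSG00000030378, chr7:14410686-14446769, minus strand) is a bile acid sulfotransferase of mouse liver. Its difference from SB + saline was called in 2 of the 3 groups given TAA. The level in single livers was 20.02, 26.2, 139, 214 and 18.3 CPM in SB/AKT/NRas + TAA livers and 143, 207, 107 and 41.8 CPM in SB/AKT/c-Met + TAA livers. Without TAA, Sult2a8 was at 539.9, 124, 13.6 and 106 CPM in SB/AKT/NRas + saline livers and 396, 112 and 342 CPM in SB/AKT/c-Met + saline livers. With SB alone, Sult2a8 was at 71.3, 204, 73.4 and 8.93 CPM in SB + TAA livers, against 756, 648, 498 and 668 CPM in SB + saline livers. Every liver given TAA lay below every SB + saline liver, and within SB/AKT/NRas + saline the values lay between 13.6 CPM and 539.9 CPM, the highest of them inside the SB + saline range. The log2 fold change against SB + saline was −2.95 (SE 0.76, adjusted p = 0.0134, edgeR) in SB/AKT/NRas + TAA livers and −2.86 (SE 0.83, adjusted p = 0.03743, edgeR) in SB + TAA livers. In SB/AKT/c-Met + TAA livers it was −2.37 (SE 0.81, adjusted p = 0.1051, edgeR) and in SB/AKT/NRas + saline livers −1.72 (SE 0.79, adjusted p = 0.1911, edgeR), neither called. The call in SB/AKT/NRas + TAA held without any 1 liver but was lost with robust estimation (adjusted p = 0.05546) and with the replicate number as a block (0.07481, edgeR). That in SB + TAA was lost with robust estimation (0.114) and without any 1 SB + saline liver or SB + TAA replicate 1, 3 or 4 (adjusted p up to 0.117, edgeR).

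Sult2a8 and human NRAS varied widely among the SB/AKT/NRas livers. In SB/AKT/NRas + saline replicates 1 to 4, human NRAS was at 12.3, 55.3, 218 and 66.1 CPM, and Sult2a8 at 539.9, 124, 13.6 and 106 CPM. In SB/AKT/NRas + TAA replicates 1 to 5, human NRAS was at 34.04, 47.7, 18.5, 17.9 and 75.7 CPM, and Sult2a8 at 20.02, 26.2, 139, 214 and 18.3 CPM. In both groups the livers with the least human NRAS had the most Sult2a8, and the liver with the most human NRAS had the least. Summed over 7 cholangiocyte markers, the same livers had 150, 2580, 8810 and 919 CPM in SB/AKT/NRas + saline livers and 1280, 1570, 337, 225 and 4760 CPM in SB/AKT/NRas + TAA. The part of transgene level and of cholangiocyte RNA in these results was not tested. Without SB/AKT/NRas + saline replicate 1, the log2 fold change of SB/AKT/NRas + saline relative to SB + saline was −3.00 for Sult2a8 (adjusted p = 0.01289, edgeR), −1.66 for Ugt2b1 (0.00146), −1.27 for Ugt3a2 (0.01339) and −2.70 for Ugt2b38 (0.004666), all called, and without replicate 3 it was −1.33 for Sult2a8 (0.3989) and −0.74 for Ugt2a3 (0.08772).

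**Figure D3:**
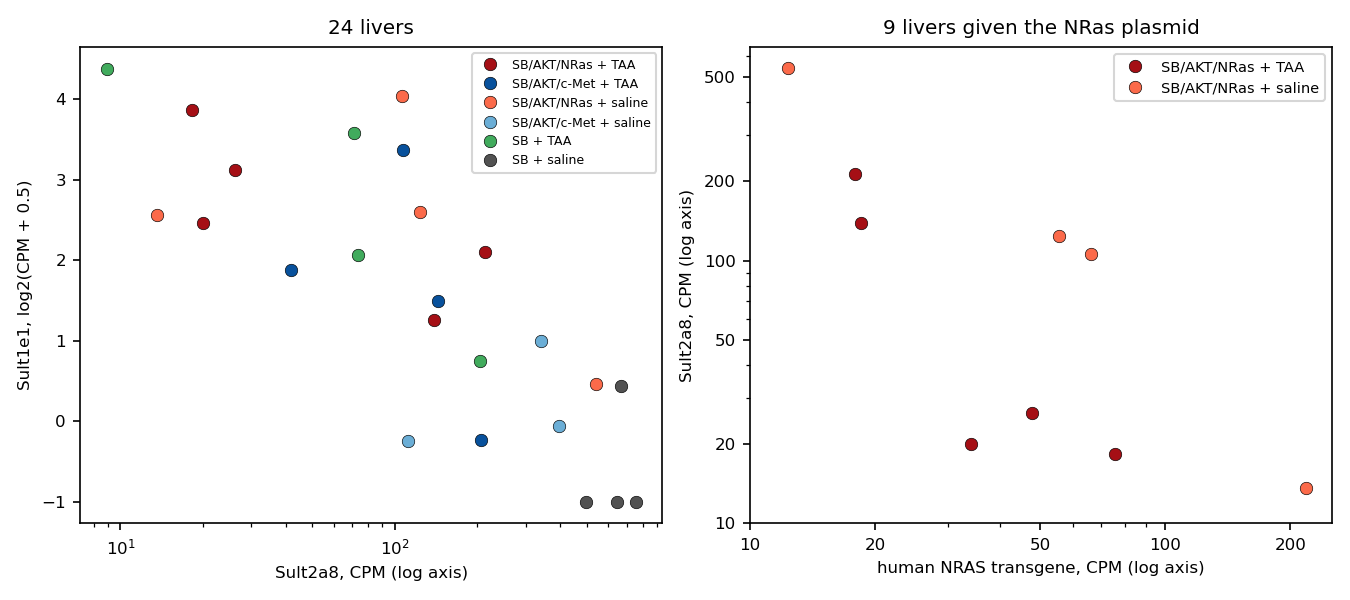
Left, Sult2a8 in CPM (x axis, log scale) against Sult1e1 as log2(CPM + 0.5) (y axis) in 24 livers coloured by group. Right, human NRAS (x axis) against Sult2a8 (y axis), both in CPM on log scales, in the 9 livers given the NRas plasmid, where Sult2a8 runs between 539.9 CPM at the lowest human NRAS level and 13.6 CPM at the highest.

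Sult1b1 (ENSMUSG00000029269), which sulfates thyroid hormones and phenols, was lowest in SB/AKT/NRas + saline livers. Its scaled count was 18.7, 16.7, 16.6, 25.8 and 12.03 CPM in SB/AKT/NRas + TAA livers and 18.1, 30.96, 19.02 and 19.7 CPM in SB/AKT/c-Met + TAA livers. The saline groups with oncogenes had 14.5, 8.699, 4.26 and 12.04 CPM (SB/AKT/NRas + saline) and 19.4, 18.8 and 16.9 CPM (SB/AKT/c-Met + saline). In mice given SB alone, Sult1b1 was at 19.8, 22.5, 20.2 and 18.1 CPM in SB + TAA livers, against 37.2, 36.9, 17.6 and 23.5 CPM in SB + saline livers. All 4 SB/AKT/NRas + saline livers lay below all SB + saline livers, and the other groups overlapped SB + saline. The log2 fold change of SB/AKT/NRas + saline relative to SB + saline was −1.56 (SE 0.29, adjusted p = 0.001335, edgeR). It was called in this comparison alone of the 13, and stayed called without SB/AKT/NRas + saline replicate 1 (−1.80, adjusted p = 0.0001357, edgeR) and without replicate 3 (−1.29, 0.00768). SB/AKT/NRas + TAA livers were at −0.68 (SE 0.25, adjusted p = 0.0916, edgeR) relative to SB + saline, and the difference between the TAA effects in SB/AKT/NRas and in SB livers was 1.39 (SE 0.38, adjusted p = 0.08316, edgeR), which did not pass.

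Sult1d1 (ENSMUSG00000029273), the catecholamine sulfotransferase of mice, was lowest in both oncogene groups given saline and overlapped SB + saline in every group given TAA. Its level was 160.2, 151, 178, 170.2 and 116 CPM in SB/AKT/NRas + TAA livers and 169.8, 171, 165 and 143 CPM in SB/AKT/c-Met + TAA livers. Without TAA, Sult1d1 was at 98.9, 89.4, 38.6 and 105 CPM in SB/AKT/NRas + saline livers and 76.9, 94.7 and 70.1 CPM in SB/AKT/c-Met + saline livers. With SB alone, Sult1d1 was at 132, 169, 156 and 114 CPM in SB + TAA livers, against 167, 106, 119 and 162 CPM in SB + saline livers. All livers of both oncogene + saline groups lay below all SB + saline livers. The log2 fold change against SB + saline was −0.74 (SE 0.22, adjusted p = 0.03424, edgeR) in SB/AKT/NRas + saline livers and −0.78 (SE 0.24, adjusted p = 0.1773, edgeR) in SB/AKT/c-Met + saline livers. The call in SB/AKT/NRas + saline was lost without replicate 3 of that group (−0.51, adjusted p = 0.1431), without its replicate 2 or SB + saline replicate 1 or 4 (adjusted p up to 0.1431) and with scaling by library size alone (−0.33, adjusted p = 0.2555, edgeR).

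In both oncogene backgrounds, the Sult1d1 levels of all livers given TAA lay above those of all livers given saline. The log2 fold change was 0.91 (SE 0.21, adjusted p = 0.0765, edgeR) in SB/AKT/NRas + TAA relative to SB/AKT/NRas + saline livers and 1.01 (SE 0.24, adjusted p = 0.07394) in SB/AKT/c-Met + TAA relative to SB/AKT/c-Met + saline livers, neither called. Under limma-voom the first had an adjusted p of 0.03852, and under DESeq2 these were 0.008842 and 0.009305. In SB livers the change with TAA was 0.04, and the differences of the TAA effects, 0.86 with NRas (adjusted p = 0.18) and 0.97 with c-Met (adjusted p = 0.4367, edgeR), did not pass.

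**Figure D4:**
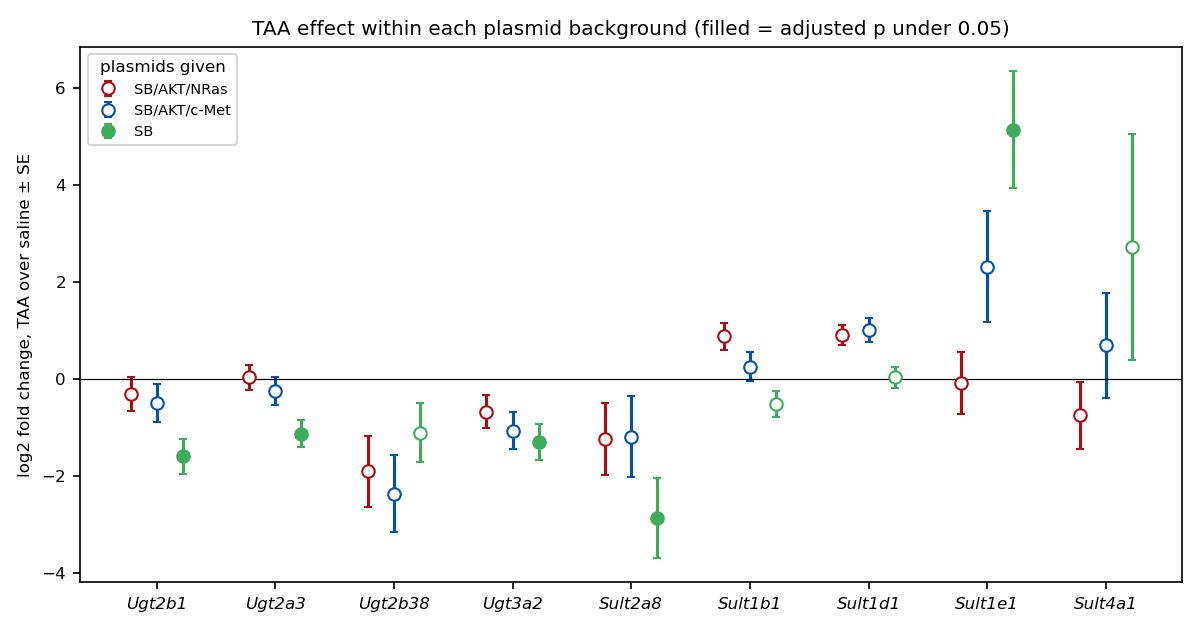
Log2 fold change of TAA over saline (y axis, bars ± SE, n = 3 to 5 livers per group) for the 9 members (x axis) in SB/AKT/NRas, SB/AKT/c-Met and SB livers. Filled points passed an adjusted p under 0.05, which happened only in SB livers, where Ugt2b1, Ugt2a3, Ugt3a2 and Sult2a8 fell and Sult1e1 rose; Sult1d1 is at 0.91 and 1.01 in the 2 oncogene backgrounds and 0.04 in SB livers.

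Sult1e1 (ENSMUSG00000029272), the estrogen sulfotransferase, was nearly absent from SB + saline livers and had counts in every liver of the other groups. The level in single livers was 5.01, 8.205, 1.88, 3.78 and 14.03 CPM in SB/AKT/NRas + TAA livers and 2.305, 0.352, 9.82 and 3.16 CPM in SB/AKT/c-Met + TAA livers. The saline groups with oncogenes had 0.879, 5.57, 5.397 and 15.9 CPM (SB/AKT/NRas + saline) and 0.463, 0.342 and 1.5 CPM (SB/AKT/c-Met + saline). In mice given SB alone, Sult1e1 was at 11.4, 1.18, 3.67 and 20.3 CPM in SB + TAA livers, against 0, 0, 0 and 0.856 CPM in SB + saline livers. No SB/AKT/NRas + TAA, SB/AKT/NRas + saline or SB + TAA liver overlapped SB + saline, while SB/AKT/c-Met livers did. For SB/AKT/NRas + saline this rests on scaling, since its replicate 1 (0.879 CPM) and SB + saline replicate 4 (0.856 CPM) both held 2 counts. SB + saline livers held 2 counts together, both in replicate 4, so the fold is given as the ratio of summed counts per scaled library with its exact 95% counting interval. It was 31.3 (8.47 to 262) in SB/AKT/NRas + TAA with 114 counts, 18.5 (4.86 to 157) in SB/AKT/c-Met + TAA with 48, 32.7 (8.78 to 274) in SB/AKT/NRas + saline with 86, 3.45 (0.618 to 35.0) in SB/AKT/c-Met + saline with 6 and 44.4 (12.02 to 370.3) in SB + TAA with 124 counts. These intervals cover counting error only. Much of each sum came from 1 liver. Without the highest liver of its group the ratio was 21.1 in SB/AKT/NRas + TAA (without replicate 5), 8.61 in SB/AKT/c-Met + TAA (replicate 3), 19.05 in SB/AKT/NRas + saline (replicate 4), 1.76 in SB/AKT/c-Met + saline (replicate 3) and 24.9 (6.54 to 212) in SB + TAA (replicate 4, with 75 of the 124 counts). The test over livers called it in SB/AKT/NRas + TAA (adjusted p = 0.01413), SB/AKT/NRas + saline (0.01763) and SB + TAA (0.01057, edgeR). Without SB + TAA replicate 4, the liver with muscle RNA and the highest Sult1e1 level of all, the adjusted p in SB + TAA was 0.06028. The call in SB/AKT/NRas + TAA was lost without SB + saline replicate 1 or 3 (adjusted p up to 0.05369), and that in SB/AKT/NRas + saline without SB + saline replicate 1, 2 or 3 or its own replicate 4 (up to 0.0767, edgeR) and with robust estimation (0.05429). SB/AKT/NRas + TAA replicate 5 and SB + TAA replicate 4 had both the least Sult2a8 and the most Sult1e1 of their groups, and in the 4 other groups these were different livers.

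Sult4a1 (ENSMUSG00000018865, chr15:84076097-84105754, minus strand) codes for a SULT known mainly from brain, with no settled substrate. Its scaled count was 1.67, 1.26, 3.45, 0.688 and 8.02 CPM in SB/AKT/NRas + TAA livers and 0.768, 0.704, 0.614 and 4.56 CPM in SB/AKT/c-Met + TAA livers. Without TAA, Sult4a1 was at 0, 5.57, 9.66 and 5.21 CPM in SB/AKT/NRas + saline livers and 0, 2.39 and 0.375 CPM in SB/AKT/c-Met + saline livers. With SB alone, Sult4a1 was at 0.336, 0.395, 0.306 and 0 CPM in SB + TAA livers, against 0, 0, 0 and 0 CPM in SB + saline livers. SB + saline livers held no count, which allows up to 0.336 CPM over the group (3 counts). Relative to that limit, the observed mean was 8.98-fold in SB/AKT/NRas + TAA, 4.95-fold in SB/AKT/c-Met + TAA and 15.2-fold in SB/AKT/NRas + saline. These ratios leave out the spread between livers and the counting error of the group with counts. Without SB/AKT/NRas + TAA replicate 5 the first ratio was 5.26-fold, and without SB/AKT/c-Met + TAA replicate 4 the second was 2.07-fold. The difference in SB/AKT/c-Met + TAA was not called (adjusted p = 0.1271, edgeR). In SB/AKT/c-Met + saline the level rests on replicate 2 (2.39 CPM). Without it the mean of 0.188 CPM lay under the SB + saline limit, and with all 3 livers the difference was not called (adjusted p = 0.4694, edgeR). The difference from SB + saline was called in SB/AKT/NRas + TAA (adjusted p = 0.01896) and SB/AKT/NRas + saline (0.008222, edgeR), where 1 liver, replicate 1 with the least human NRAS, was also at 0. The call in SB/AKT/NRas + TAA was lost without SB + saline replicate 1, 3 or 4 or SB/AKT/NRas + TAA replicate 5 (adjusted p up to 0.06532, edgeR) and with the replicate number as a block (0.05961). SB + TAA livers held 3 counts, and relative to them the ratio of summed counts was 13.8 (95% counting interval 4.48 to 69.1) in SB/AKT/NRas + TAA, with no overlap between the groups, and 7.46 (2.24 to 38.9) without replicate 5, but the test over livers did not pass (adjusted p = 0.1256, edgeR). In the SB/AKT/NRas livers, the most Sult4a1 was in the livers with the highest cholangiocyte marker sums given above (9.66 CPM beside 8810 CPM, and 8.02 CPM beside 4760 CPM), and the part of those cells was not tested.

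Several abundant members showed no called difference. Ugt2b5 averaged 988 to 1237 CPM over the 6 groups, Ugt2b36 606 to 764, Ugt2b34 257 to 349.8, Ugt2b35 63.6 to 101 and Sult1a1, a phenol sulfotransferase, 165 to 276 CPM, and none of them was called in any comparison by edgeR. Bilirubin glucuronidation depends on Ugt1a1, which was not called either but had 150 counts over all livers and shares its last exons with the other Ugt1a genes. Of the less abundant members, Ugt2b37 averaged 4.87 to 13.05 CPM over the groups, Sult1c2 3.11 to 4.65, Sult5a1 2.23 to 6.604, Ugt3a1 0.376 to 2.18, Sult2a7 0.722 to 2.75 and Sult2b1, which sulfates cholesterol, 0.0676 to 1.52 CPM, with no call. At these levels, small differences were not detectable. The 6 members that were not tested, Sult1c1, Sult2a1, Sult2a3, Sult2a4, Sult3a1 and Ugt1a2, had 1 to 8 counts over all 24 livers.

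Between SB + TAA livers and SB + saline livers, 5 members differed (18.5% of 27, against 5.99% of all genes tested). Ugt2b1, Ugt2a3, Ugt3a2 and Sult2a8 fell and Sult1e1 rose (backgrounds 2.51% lower and 3.48% higher), and for all 5 the SB + TAA and SB + saline livers did not overlap. The share of all genes without overlap was not computed, here or in the comparisons below, so lack of overlap is a description only. The median log2 fold change of the 27 members was −0.40, against 0.09 over all genes, and 21 lay below 0. Perivenous hepatocyte markers, 4 of 8 called lower, summed to 473 to 1230 CPM in SB + TAA livers and 2720 to 4690 CPM in SB + saline livers. Male-biased liver genes, 5 of 8 called lower, summed to 3440 to 9690 CPM in SB + TAA livers and 9860 to 13200 CPM in SB + saline livers. Stellate cell markers, 4 of 7 called higher, summed to 149 to 473 CPM in SB + TAA livers and 54 to 89.9 CPM in SB + saline livers. Hepatocyte markers (1 of 8 lower) and macrophage (1 of 7), endothelium (1 of 6) and T and NK cell markers (1 of 5, all higher) also held calls. With replicate 4 included, so did all 6 skeletal muscle markers, which were higher. The part of these in the members' changes was not tested. Without SB + TAA replicate 4 only Ugt2b1 was called (−1.34, adjusted p = 0.04646, edgeR), with the log2 fold changes of the other 4 at −0.96 (Ugt2a3), −1.05 (Ugt3a2), −2.48 (Sult2a8) and 4.37 (Sult1e1). The count was 2 without SB + saline replicate 1, and 3 without SB + saline replicate 2, 3 or 4 or SB + TAA replicate 1 or 3.

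With AKT and NRas but no TAA, 5 members differed from SB + saline (18.5% of 27, against 8.41% of all genes). Sult1b1, Sult1d1 and Ugt2a3 fell and Sult1e1 and Sult4a1 rose (backgrounds 2.84% lower and 5.56% higher), and the median log2 fold change was −0.38, against 0.07 over all genes. limma-voom called 8 members and DESeq2 6. The count was 9 without SB/AKT/NRas + saline replicate 1, 3 without replicate 3 or replicate 4 of that group, and 2 without SB + saline replicate 1. The 8.41% belongs to the main fit, and calls over all genes may move in these other fits too. Cholangiocyte markers, 3 of 7 called higher, summed to 150 to 8810 CPM in SB/AKT/NRas + saline livers and 56.1 to 97 CPM in SB + saline livers. Perivenous markers, 2 of 8 called lower, summed to 495 to 2790 CPM in SB/AKT/NRas + saline livers, and male-biased genes, 2 of 8 called lower, to 3470 to 19300 CPM, and stellate cell markers, 4 of 7 called higher, to 56.7 to 718 CPM. Periportal hepatocyte markers, 4 of 6 called lower, summed to 495 to 2780 CPM in SB/AKT/NRas + saline livers and 2760 to 3680 CPM in SB + saline livers. Hepatocyte markers (2 of 8 lower), macrophage markers (3 of 7 higher) and neutrophil markers (2 of 4 higher) also held calls. Their part was not tested.

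With AKT and c-Met but no TAA, no member was called by edgeR (0 of 27, against 0.64% of all genes called), limma-voom or DESeq2. At an unadjusted p under 0.05 there were 5 members. No share of all genes at that unadjusted p was computed, so the 5 cannot be set against 0.64%. The median log2 fold change was −0.12, against 0.02 over all genes, and this group had 3 livers only. Without SB/AKT/NRas + saline replicate 3, which enters only through the shared estimate of spread, 1 member was called.

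With AKT, NRas and TAA together, 7 members differed from SB + saline (25.9% of 27, against 9.25% of all genes). Ugt2b1, Ugt2a3, Ugt2b38, Ugt3a2 and Sult2a8 fell and Sult1e1 and Sult4a1 rose (backgrounds 3.55% lower and 5.7% higher), each with no overlap between the groups (share over all genes not computed). Perivenous markers, 5 of 8 called lower, summed to 759 to 985 CPM in SB/AKT/NRas + TAA livers, against 2720 to 4690 CPM in SB + saline livers. Male-biased genes, 5 of 8 called lower, summed to 5960 to 15000 CPM in SB/AKT/NRas + TAA livers and 9860 to 13200 CPM in SB + saline livers, and 4 of 8 hepatocyte markers were called lower (sums given above). Stellate cell markers, 3 of 7 called higher, summed to 126 to 432 CPM in SB/AKT/NRas + TAA livers and 54 to 89.9 CPM in SB + saline livers. Macrophage (4 of 7), cholangiocyte (1 of 7), neutrophil (1 of 4) and endothelium markers (1 of 6) also held calls, all higher. The part of these in the members' changes was not tested. The count was 4 without SB + saline replicate 1, and 4 with the replicate number as a block.

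With AKT, c-Met and TAA together, 2 members differed from SB + saline, Ugt2b38 and Ugt3a2, both lower (7.41% of 27, against 3.76% of all genes called and 1.07% called lower). In 5 other members, Ugt2b1, Ugt2a3, Sult2a8, Sult4a1 and Ugt1a1, the livers did not overlap SB + saline either, but the test did not pass (adjusted p = 0.09152, 0.1216, 0.1051, 0.1271 and 0.2677, edgeR). With so few livers per group, genes can separate by chance, and the share of all genes that did so was not computed. Perivenous markers, 4 of 8 called lower, summed to 680 to 1400 CPM in SB/AKT/c-Met + TAA livers, and male-biased genes, 4 of 8 called lower, to 6180 to 9570 CPM. Hepatocyte markers (2 of 8 lower) and macrophage (3 of 7), endothelium (1 of 6) and T and NK cell markers (1 of 5, all higher) also held calls. The part of all these lists was not tested. DESeq2 called 4 members and limma-voom 2. The edgeR count was 0 without replicate 2 or replicate 3 of SB/AKT/c-Met + TAA, 1 without its replicate 4 or any SB + saline liver, and 4 without SB/AKT/NRas + saline replicate 1 or 3. All 5 comparisons above share the SB + saline livers. With scaling by library size alone, the members' median log2 fold change lay between −0.0408 and 0.095 in these 5 comparisons, above 0 in SB/AKT/NRas + saline and both c-Met groups, and stayed below the median of all genes (0.284 to 0.504).

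**Figure D5:**
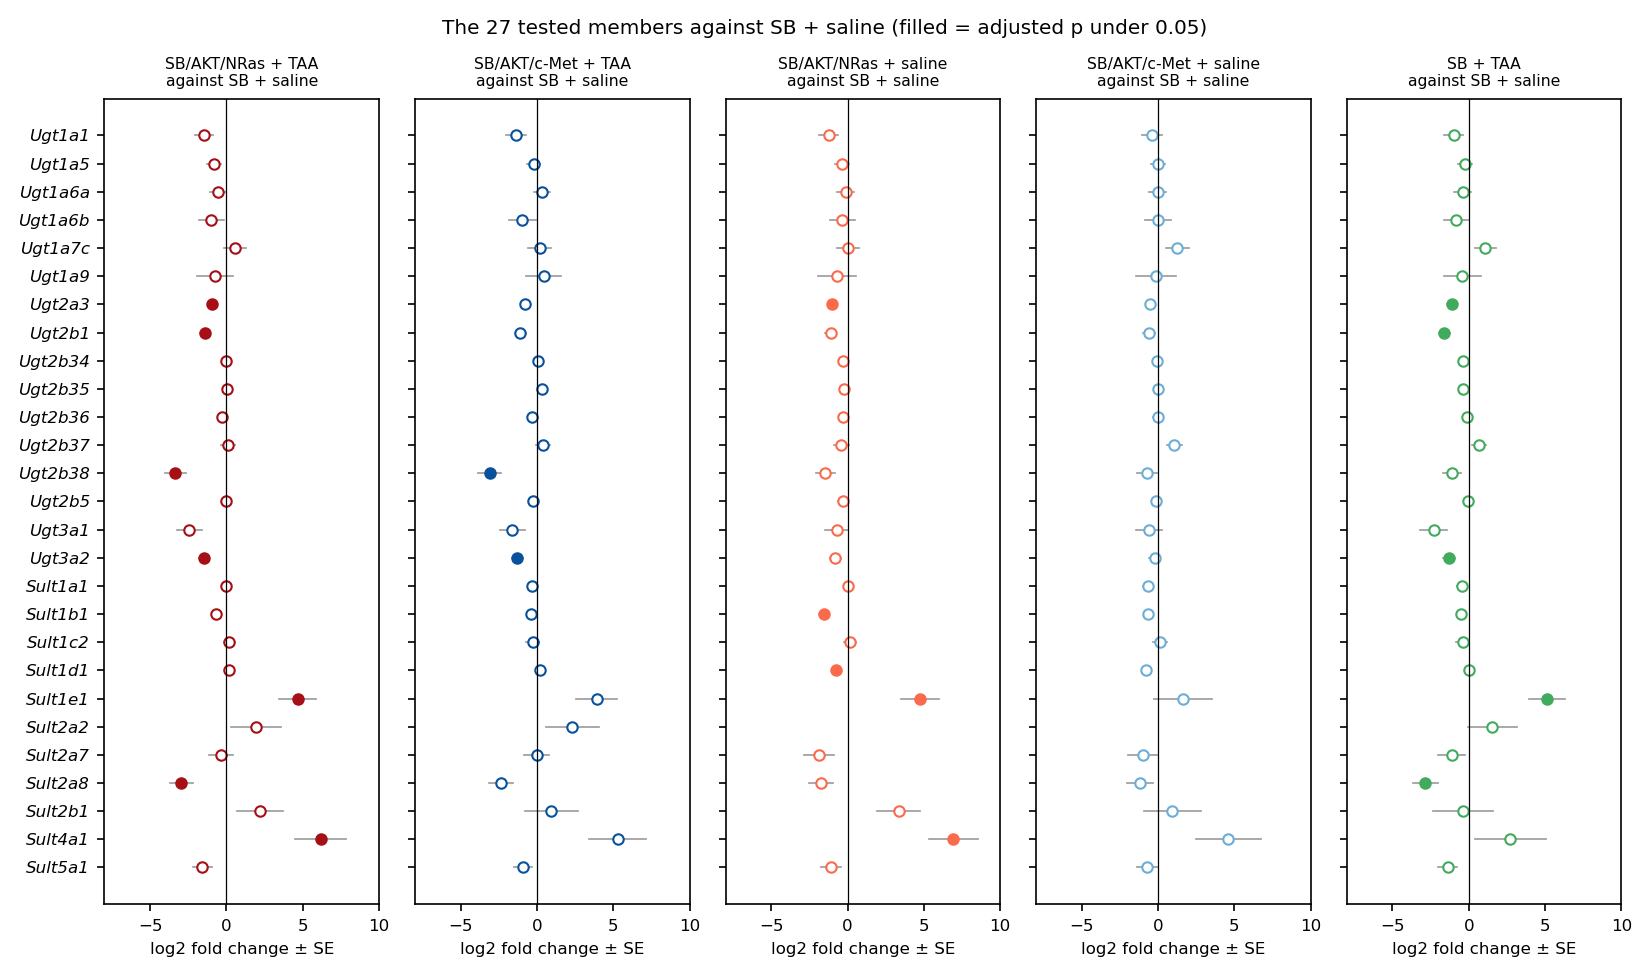
Log2 fold change against SB + saline (x axis, bars ± SE) of the 27 members tested, 1 panel per group (SB/AKT/NRas + TAA, SB/AKT/c-Met + TAA, SB/AKT/NRas + saline, SB/AKT/c-Met + saline, SB + TAA). Filled points passed an adjusted p under 0.05 and number 7, 2, 5, 0 and 5 in that order of panels; folds of Sult1e1 and Sult4a1 rest on 2 and 0 counts in SB + saline and depend on the prior count of the model.

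No member was called where oncogene groups were compared with each other, where TAA was compared with saline within an oncogene background, or where oncogenes were compared with SB alone under TAA. Shares in brackets below are of all genes called at an adjusted p under 0.05, and belong beside this lack of calls. They cannot be set against the member counts at an unadjusted p, for which no share over all genes was computed. SB/AKT/NRas + TAA relative to SB + TAA had 3 members at an unadjusted p under 0.05 (1.47% of all genes called), and SB/AKT/c-Met + TAA relative to SB + TAA had 4 (0.402%), with 0 called by limma-voom and DESeq2 in both. SB/AKT/NRas + TAA relative to SB/AKT/NRas + saline had 3 (0.175%), with 1 called by limma-voom and 1 by DESeq2, and SB/AKT/c-Met + TAA relative to SB/AKT/c-Met + saline had 3 (0.237%), with 0 by limma-voom and 1 by DESeq2. SB/AKT/NRas + saline relative to SB/AKT/c-Met + saline had 5 (0.134%) and SB/AKT/NRas + TAA relative to SB/AKT/c-Met + TAA had 0 (0.0103%), with none called by the other tools. Leaving out 1 liver gave 1 call in SB/AKT/c-Met + TAA relative to SB/AKT/c-Met + saline (without SB/AKT/NRas + saline replicate 1 or 3), 1 in SB/AKT/NRas + TAA relative to SB/AKT/NRas + saline (without replicate 1 of the saline group), and 2 and 1 in SB/AKT/NRas + TAA relative to SB + TAA (without SB/AKT/NRas + saline replicate 1 and SB + TAA replicate 4). Nearest to a call between oncogenes were Ugt2b37, at a log2 fold change of −1.47, and Sult1b1, at −0.92, in SB/AKT/NRas + saline relative to SB/AKT/c-Met + saline livers, both with no overlap (adjusted p = 0.3186 for each, edgeR).

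The TAA effect was also compared between backgrounds. For NRas, 7 members had an unadjusted p under 0.05 and none was called by edgeR (0.758% of all genes called), with 0 called by limma-voom and 2 by DESeq2. Sult1e1 came nearest, with the TAA effect in SB/AKT/NRas livers minus that in SB livers at −5.22 on the log2 scale (SE 1.43, adjusted p = 0.08186), followed by Sult1b1 (given above), Ugt2a3 at 1.16 (adjusted p = 0.1445), Sult1d1 (given above) and Ugt2b1 at 1.29 (0.2238, edgeR). Without SB/AKT/NRas + saline replicate 1, Ugt2b1, Ugt2a3, Sult1b1 and Sult1e1 were called, without SB + TAA replicate 2 the count was 3, and without SB/AKT/NRas + TAA replicate 5 it was 2. For c-Met, 4 members had an unadjusted p under 0.05 and 0 were called by edgeR (0.0103% of all genes called), limma-voom or DESeq2. For both counts at an unadjusted p, no share over all genes was computed.

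Ugdh, which makes UDP-glucuronic acid, rose in all 3 groups given TAA. Of 5 genes of UDP-glucuronic acid supply, all tested, 2 were called higher in SB/AKT/NRas + TAA, 2 in SB/AKT/c-Met + TAA livers and 1 in SB + TAA livers against SB + saline, and none was lower. Ugdh averaged 356 ± 29.7 CPM in SB/AKT/NRas + TAA, 367 ± 37.9 in SB/AKT/c-Met + TAA livers and 427 ± 111 in SB + TAA, against 198 ± 47.4 CPM in SB + saline livers (SD, n = 5, 4, 4 and 4, as for the other means of these groups; adjusted p = 0.01422, 0.02441 and 0.004739, edgeR). Ugp2, which makes UDP-glucose, averaged 542 ± 67.4 CPM in SB/AKT/NRas + TAA livers, against 259 ± 56.1 in SB + TAA livers and 272 ± 56.7 CPM in SB + saline livers (adjusted p = 0.002472 and 0.0018). Of 13 symbols listed for sulfate handling and for PAPS supply and use, 11 were tested. The symbols Bpnt2 and Impad1 in that list name the same gene. Papss2, a PAPS synthase, and Tpst1, a protein tyrosine sulfotransferase, were called lower in both NRas groups and in no other group against SB + saline. Papss2 averaged 70.2 ± 12.1 CPM in SB/AKT/NRas + TAA livers and 59.5 ± 19.9 in SB/AKT/NRas + saline, against 119.6 ± 17.9 CPM in SB + saline livers (adjusted p = 0.01959 and 0.006451). Of 5 hydrolases listed for deconjugation, 4 were tested. Only Ces1d, a carboxylesterase and not a glucuronidase or sulfatase, was called against SB + saline. It fell in both NRas groups (log2 fold change −1.24 with TAA and −1.55 with saline).

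Nr1i3, the xenobiotic receptor CAR, was called lower in 4 of the 5 groups and lay below every SB + saline liver in the fifth too. Of 19 receptors and transcription factors that sense xenobiotics or hormones, 1 was higher and 4 lower in SB/AKT/NRas + TAA, 1 higher and 1 lower in SB/AKT/c-Met + TAA, 1 higher and 2 lower in SB/AKT/NRas + saline, 0 higher and 4 lower in SB + TAA livers, and none called in SB/AKT/c-Met + saline livers, each against SB + saline. Nr1i3 averaged 31.5 ± 4.72 CPM in SB/AKT/NRas + TAA, 34.01 ± 11.9 in SB/AKT/c-Met + TAA, 27.7 ± 14.5 in SB/AKT/NRas + saline livers and 26.6 ± 15.5 in SB + TAA, against 81.7 ± 18.4 CPM in SB + saline livers, and was called lower in all 4 (log2 fold change −1.38, −1.27, −1.58 and −1.64). In SB/AKT/c-Met + saline livers it averaged 34.6 ± 6.32 CPM (SD, n = 3), with no overlap with SB + saline, and the log2 fold change of −1.23 (SE 0.38) was not called (adjusted p = 0.1754, edgeR). Nfe2l2, the oxidative stress factor NRF2, rose in SB/AKT/NRas + TAA livers (0.80), SB/AKT/c-Met + TAA livers (0.85) and SB/AKT/NRas + saline livers (0.66), and the estrogen receptor gene Esr1 fell in both NRas groups (−1.20 with TAA and −1.12 with saline). Bcl6, a repressor with higher levels in male liver, fell in SB + TAA (−2.23, SE 0.65, adjusted p = 0.03718). Female-biased liver genes, of which 8 of 9 were tested, had 3, 3, 1, 2 and 1 called higher in SB/AKT/NRas + TAA, SB/AKT/c-Met + TAA, SB/AKT/NRas + saline, SB/AKT/c-Met + saline and SB + TAA livers, and none lower. Hnf4a and Cux2 of the regulator list are also in the hepatocyte and female-biased lists.

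Of 7 conjugate transporters, 1 rose and 2 fell in SB/AKT/NRas + TAA livers, 1 rose and 2 fell in SB/AKT/c-Met + TAA livers, 1 rose in SB/AKT/NRas + saline livers, 3 fell in SB + TAA livers and none was called in SB/AKT/c-Met + saline livers, against SB + saline. Abcc4, which exports sulfate and glucuronide conjugates to the blood, was the gene that rose, at 32.1 ± 4.49 CPM in SB/AKT/NRas + TAA, 35.2 ± 16.2 in SB/AKT/c-Met + TAA livers and 10.3 ± 3.35 in SB/AKT/NRas + saline, against 3.48 ± 2.39 CPM in SB + saline livers (adjusted p = 3.091e-06, 4.958e-06 and 0.01409, edgeR). It was also higher in both oncogene + TAA groups than in SB + TAA (8.34 ± 1.03 CPM) and than in their saline groups. Slco1a1, an uptake transporter for conjugates and one of the 8 male-biased genes counted above, fell in SB/AKT/NRas + TAA livers (−3.35) and SB/AKT/c-Met + TAA livers (−4.65), and the bile-side exporter Abcg2 in SB/AKT/c-Met + TAA livers (−0.73) and SB + TAA livers (−0.71).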

How the data were processed

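RNA from snap-frozen livers of 24 mice was sequenced from the poly(A) end with sample indices and unique molecular identifiers. The authors aligned reads with STAR to GRCm38 with the human transgenes added, removed duplicates by molecular identifier and counted reads per gene with featureCounts 1.6.4, using strand and discarding reads of several genes. The deposited counting summary lists 0 records discarded as duplicates, so whether each count is 1 molecule was not checked, and counting intervals and floors assume it. The deposited values are these raw counts; the 2 deposited tables held the same counts in all 1283208 cells. Deposited reads per gene come mostly from the 3′ end, so CPM was not compared between genes.

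The analysis took TMM-scaled counts into edgeR 4.0.16 (R 4.3.3), in 1 model of 6 group means over the 19381 genes with at least 0.5 CPM in 2 livers. P-values come from the quasi-likelihood F test, with Benjamini-Hochberg adjustment over these genes, and a gene was called at an adjusted p under 0.05. SE is the absolute log2 fold change over the square root of F. Named members were those differing among the 6 groups. The members, gene lists and promoter motifs were chosen with earlier results of these data known. Alternatives were limma-voom (limma 3.58.1, the tool of the study), DESeq2 1.42.0 with its default independent filtering, other scalings and filters, robust estimation, a fold threshold, only the groups compared, the replicate number as a block, and each liver left out. The fit was tested on simulated data. P-values measure the spread between mice of 1 experiment.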

Additional observations from a re-analysis of the deposited data

Results flagged for a closer look

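Among 44 sets of 4 or 5 livers examined for the 9 members, 4 held a liver set apart by Dixon's 95% critical value. The measure was its distance from the nearest other liver as a share of the set's range. Chance alone marks about 1 set in 20 where values are normally distributed, which does not hold for low counts. Ugt2b38 was at 15.9 CPM in SB + saline replicate 2, against 28.9 to 30.8 CPM in the other SB + saline livers. Sult1b1 was at 31.0 CPM in SB/AKT/c-Met + TAA replicate 2, against 18.1 to 19.7 CPM in the rest of that group. Sult4a1 was at 4.56 CPM in SB/AKT/c-Met + TAA replicate 4, against 0.614 to 0.768 CPM in the other 3. Sult1e1 was at 0.856 CPM in SB + saline replicate 4 and had no count in the other 3 SB + saline livers. A set with counts in only 1 liver always exceeds the critical value, so this mark says nothing more than that.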

How the results depend on the processing

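Among the 28 member results called by edgeR, every result with a fold change kept its sign. The F tests among the 6 groups, also counted in the 28, have no sign. Of the 28, 9 stayed called with each of the 24 livers left out and under every alternative run for them. These were 8 alternatives for the F tests and 10 for the comparisons. Of 98 uncalled results of the same members, 21 changed sign under some alternative, none with a call in the changed direction, and 30 were called under some alternative other than leaving out a liver. Counts of called members that moved by over 1.5 times follow, without the share of all genes called under each setting. The cause was not tested. Robust estimation gave 3 among the 6 groups, 3 in SB + TAA relative to SB + saline livers and 0 in SB/AKT/c-Met + TAA relative to SB + saline. limma-voom gave 8 in SB/AKT/NRas + saline relative to SB + saline livers and 1 for TAA in SB/AKT/NRas livers. DESeq2 gave 4 in SB/AKT/c-Met + TAA relative to SB + saline, 1 for TAA in SB/AKT/c-Met livers, 1 in SB/AKT/NRas livers and 2 for the NRas difference of TAA effects. Without the filter on low counts there were 9 in SB/AKT/NRas + saline, 7 in SB/AKT/c-Met + TAA livers and 1 in SB/AKT/c-Met + saline relative to SB + saline, 4 and 3 for TAA in SB/AKT/NRas livers and those of SB/AKT/c-Met, 2 and 1 in SB/AKT/NRas + TAA as well as SB/AKT/c-Met + TAA relative to SB + TAA, 2 between the oncogene + saline groups and 5 for the NRas difference. With only the groups compared, there were 3 in SB/AKT/NRas + saline, 7 in SB/AKT/c-Met + TAA livers and 2 in SB/AKT/c-Met + saline relative to SB + saline, and 3 for TAA in SB/AKT/c-Met livers. Library size alone gave 1 for TAA in SB/AKT/c-Met livers and 1 for the NRas difference.

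Leaving out 1 liver at a time gave 5 to 9 members among the 6 groups, 1 to 7 in SB + TAA, 0 to 1 in SB/AKT/c-Met + saline, 2 to 9 in SB/AKT/NRas + saline, 0 to 4 in SB/AKT/c-Met + TAA livers and 4 to 9 in SB/AKT/NRas + TAA relative to SB + saline. It gave 0 to 1 for TAA in SB/AKT/c-Met and in SB/AKT/NRas livers, 0 to 2 in SB/AKT/NRas + TAA relative to SB + TAA, 0 to 4 for the NRas difference and 0 in the other 4 comparisons. The labels do not pair livers, and livers with the same replicate number did not deviate together (mean correlation −0.00717, and 0.00211 for different numbers). With the replicate block, 4 members were called in SB/AKT/NRas + TAA relative to SB + saline livers and 1 for the NRas difference.

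Over all genes, the share of calls that were higher against SB + saline was 61.6% in SB/AKT/NRas + TAA, 71.4% in SB/AKT/c-Met + TAA, 66.2% in SB/AKT/NRas + saline livers and 58.1% in SB + TAA with TMM, and 92.2%, 94.3%, 94.3% and 92.2% with library size alone; for TAA in SB/AKT/NRas livers it was 70.6% and 60%, and for the NRas difference 23.1% and 4.55%. Members with few counts (Sult1e1, Sult4a1, Ugt1a genes) are limited by depth.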
